A study of Mus musculus with 24 samples.

Results

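The genes described here are 10 markers of astrocytes: Slc1a2, Slc1a3, Glul, Aldoc, Aldh1l1, Aqp4, Mlc1, Gja1, Gfap and S100b. They were chosen by gene symbol, and all 10 were found among the 16024 genes measured in neural progenitor cells (NPC) and among the 17501 genes measured in mouse embryonic stem cells (mESC). RNA sequencing covered 24 libraries, 12 of each cell type, with 2 libraries for each of 6 genotypes of Htt, the gene that encodes huntingtin and carries the CAG repeat expanded in Huntington's disease. The genotypes were wild type (WT), Htt knockout (KO), and knock-in alleles Q20, Q50, Q92 and Q111, named for their 20, 50, 92 or 111 CAG repeats. Per the labels, the knock-in mESC lines are heterozygous, so each also carries a normal Htt allele, and each repeat length is represented by 1 line. The titles give 92 repeats for the third line, while the growth protocol gives 89. The mESC grew with leukemia inhibitory factor on a feeder layer of irradiated CF-1 mouse embryonic fibroblasts. NPC were made from mESC by 7 days in N2B27 medium followed by expansion in NS medium with FGF and EGF on laminin, so no group was treated to make astrocytes. The design text calls the 2 libraries of a group biological samples without saying whether they came from separate cultures or differentiations, so p-values measure only the spread between these libraries.

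Astrocytes take up glutamate and potassium, hand glutamine back to neurons, control water flow at blood vessels and are joined by gap junctions. Most of their marker genes are also active in radial glia and in cultured neural stem cells, from which astrocytes arise, and their level climbs as such cells mature along the glial path. Cytokine signalling through STAT3, together with nuclear factor I proteins, is the textbook route to astrocyte genes such as Gfap. In RNA from a whole culture, fewer cells of a type and less RNA per cell cannot be told apart.

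Values are CPM, counts scaled by the authors for library depth, and differences are on the log2(CPM + 1) scale with their standard error (SE). A gene was called when its adjusted p from limma, with the Benjamini-Hochberg method over all genes tested, was under 0.05. The recovered depth lay between 48525333 and 118038952 reads per NPC library and between 58546211 and 81502284 per mESC library. Htt itself had 137 and 177 CPM in NPC WT and 100.1 and 94.9 CPM in NPC KO, a difference of -0.67 ± 0.14 (SE, adjusted p = 0.0673). In mESC, the library labelled KO replicate 1 had 139 CPM of Htt, above the 124 and 113 CPM of WT, and KO replicate 2 had 68.5 CPM. The Htt level therefore did not set the mESC library labelled KO replicate 1 apart from WT. Htt was not called in the CAG trend of either cell type.

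The start regions of the members are shown for Gfap and Slc1a3 because these hold the letter pattern TTCNNNGAA, which STAT proteins are known to recognise, and because Gfap had the widest range of levels among the knock-in lines and Slc1a3 a narrow one. Gene positions given with each member are from GENCODE M21 on GRCm38. RefSeq windows on build GRCm38.p6, from 250 bases before to 10 bases after an annotated start, were found for 9 of the 10 members. Capitals mark TTCNNNGAA, which reads the same on both strands. In Gfap the match begins 2 bases before the start, and in Slc1a3 it begins 96 bases before the start.
Gfap, chr11:102897191-102897450, minus strand: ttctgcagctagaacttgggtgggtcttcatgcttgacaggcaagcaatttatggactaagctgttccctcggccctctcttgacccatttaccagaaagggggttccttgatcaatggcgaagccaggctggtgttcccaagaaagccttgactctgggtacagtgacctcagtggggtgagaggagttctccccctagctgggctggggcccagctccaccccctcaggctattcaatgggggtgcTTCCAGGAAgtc
Slc1a3, chr15:8710798-8711057, minus strand: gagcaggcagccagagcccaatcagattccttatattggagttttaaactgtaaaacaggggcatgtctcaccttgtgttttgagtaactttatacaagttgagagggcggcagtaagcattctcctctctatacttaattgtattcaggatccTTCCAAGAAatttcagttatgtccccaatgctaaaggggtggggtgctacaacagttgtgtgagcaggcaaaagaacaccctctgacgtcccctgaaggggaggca
The pattern was present in 7.33% of all 32851 windows and in a window of 3 of the 9 members, the third being Aldoc, at the second of its annotated starts. The nuclear factor I motif TTGGCA, searched on both strands, was present in 12.6% of all windows and in those of S100b and Aldoc. The SOX motif ACAATG was present in 11.2% of all windows and in none of the members' windows. A match is a description of the letters and says nothing of binding in these cells.

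In NPC, the 10 markers were present at very different levels. Per kilobase of exon, the Q20 line had 435 CPM of Glul, 358 of Aldoc, 167 of Slc1a3 and 112 of Mlc1, against 8.41 of Gfap and 7.08 of S100b. In the Q92 line the same measure was 99.1 for Aldoc, 98.1 for Glul and 92.9 for Slc1a3, against 0.0326 for Gfap. All 10 passed the filter on low values in NPC, and 8 of the 10 differed among the 6 genotypes by an F test in limma, against 38.0% of all genes tested. The exceptions were Mlc1 (adjusted p = 0.0516) and Gja1 (adjusted p = 0.288). Aqp4 (adjusted p = 0.0281) lost its call whichever of the 8 knock-in libraries was left out, with adjusted p of 0.0513 to 0.104, and Mlc1 gained one whichever WT or KO library was left out. Together the 10 genes summed to 5786 and 5496 CPM in Q20 and to 5164 and 4208 CPM in Q50. The sums in Q92 were 1567 and 1829 CPM, and those in Q111 were 1509 and 1607 CPM. Every Q92 and Q111 sum lay below every sum of the other 4 genotypes.

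**Figure D1:**
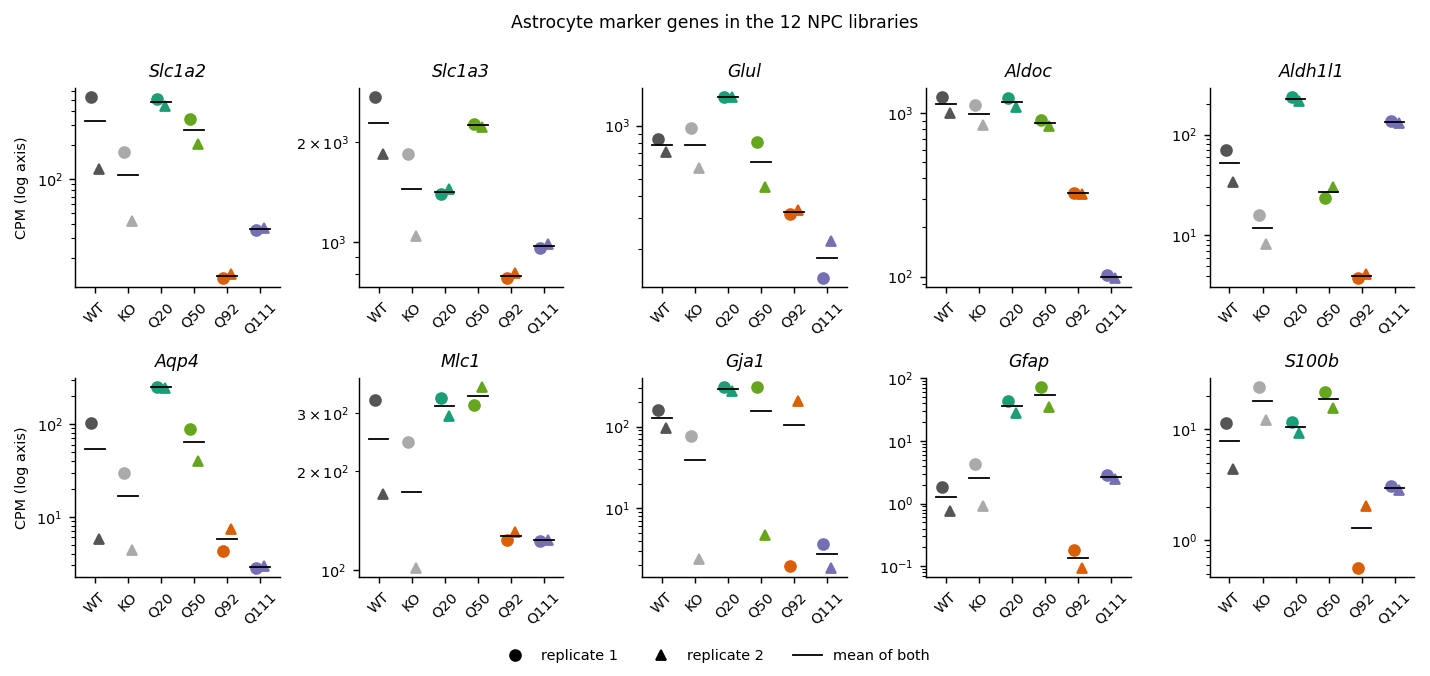
Level of each marker gene in the 12 NPC libraries (CPM, log axis), with 1 point per library and a bar at the mean of both. Of the 10 genes, 8 had both Q92 and both Q111 libraries below both Q20 and both Q50 libraries, the exceptions being Aldh1l1, high again in Q111, and Gja1, whose Q50 and Q92 replicates stood far apart.

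Slc1a2 (chr2:102658659-102790784, plus strand) encodes GLT-1, the main glutamate transporter of mature astrocytes. Its NPC values were 515 and 439.7 CPM in Q20, 344 and 205 in Q50, 13.3 and 14.6 in Q92, and 35.4 and 37.4 in Q111. WT had 532 and 123 CPM, and KO had 175 and 42.6. Q92 was lowest, Q111 was next, and no library of the other genotypes reached down to either. Both Q20 libraries lay above both Q50 libraries, while the WT pair overlapped Q20 and Q50 alike. Over the 91 repeats between 20 and 111, the fitted change across the 4 knock-in lines was -4.69 ± 0.81 (SE, adjusted p = 0.00629). Without the Q20 line it was -5.02 with an adjusted p of 0.0818. The step from Q50 to Q92 was -4.16 ± 0.75 (SE, adjusted p = 0.0065), and without Q50 replicate 1 it was -3.78 with an adjusted p of 0.0536.

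Slc1a3 (chr15:8634124-8710764, minus strand) encodes GLAST, the glutamate transporter of radial glia and immature astrocytes. By the mean of both libraries it was the most abundant member in total CPM in the 5 genotypes other than Q20, where Glul was higher. Slc1a3 had 1399 and 1446 CPM in Q20, 2276 and 2230.4 in Q50, 778 and 808 in Q92, and 962 and 986 in Q111. WT had 2741 and 1844 CPM, and KO had 1842 and 1046. Q50 lay above Q20, and both lay above Q111 and Q92, so the order did not follow the repeat length. The trend was -0.998 ± 0.393 (SE) and was not called (adjusted p = 0.103), while the step from Q50 to Q92 was called at -1.51 ± 0.26 (SE, adjusted p = 0.00592). The trend of Slc1a3 was called when the Q20 line was left out, at -2.04 (adjusted p = 0.0432).

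Glul (chr1:153899944-153909723, plus strand) encodes glutamine synthetase, which turns the glutamate taken up into glutamine. Its values were 1443 and 1449.8 CPM in Q20, 805 and 447 in Q50, 317 and 335 in Q92, and 137 and 221 in Q111. WT and KO, with 839 and 705 CPM and 974 and 575 CPM, overlapped each other and Q50. The 4 knock-in lines did not overlap and were ordered by repeat length. The trend was -2.85 ± 0.30 (SE, adjusted p = 0.00112). Of the steps, that from Q20 to Q50 was called at -1.27 ± 0.35 (SE, adjusted p = 0.0363). It was not called without either Q20 library, and without Q50 replicate 2 it was -0.85, with adjusted p of 0.139 to 0.208 in these 3 fits.

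Aldoc (chr11:78322968-78327781, plus strand) encodes aldolase C, the brain form of the glycolytic enzyme. It had 1244 and 1091 CPM in Q20, 910.1 and 839 in Q50, 324 and 322 in Q92, and 102 and 97.4 in Q111. WT had 1257 and 1009.5 CPM and KO had 1124 and 844, both within or near the range of Q20 and Q50. Its order followed repeat length with no overlap between lines, and its replicates were close together. The trend was -3.37 ± 0.39 (SE, adjusted p = 0.0015). Among consecutive lines, Aldoc fell from Q50 to Q92 by 1.43 ± 0.17 (SE, adjusted p = 0.000836) and from Q92 to Q111 by 1.69 ± 0.17 (SE, adjusted p = 0.000418). From Q20 to Q50 the difference was -0.41 ± 0.17 (SE, adjusted p = 0.128).

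Aldh1l1 (chr6:90486427-90600203, plus strand), a folate enzyme whose promoter is widely used to label astrocytes, had another order. Its values were 235 and 215 CPM in Q20, 23.7 and 30.4 in Q50, 3.75 and 4.10 in Q92, and 137 and 131 in Q111. WT had 70.3 and 33.9 CPM, and KO had 15.8 and 8.14. None of the knock-in lines overlapped, and Q111 was the second highest of the 6 genotypes. Aldh1l1 fell from Q20 to Q50 by 3.02 ± 0.37 (SE, adjusted p = 0.00073) and from Q50 to Q92 by 2.50 ± 0.37 (SE, adjusted p = 0.00257). From Q92 to Q111 it rose by 4.78 ± 0.37 (SE, adjusted p = 0.000127). The trend over the 4 lines was -1.94 ± 1.79 (SE, adjusted p = 0.473). Without the Q20 line the trend of Aldh1l1 turned to 1.94 with an adjusted p of 0.68. A gene on the opposite strand, Gm15756, and others on the same strand overlap the Aldh1l1 gene, and their reads could not be separated where counting ignored strand or shared exons.

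Aqp4 (chromosome 18, minus strand) encodes the water channel of astrocyte endfeet, and Mlc1 (chr15:88955884-88979007, minus strand) a membrane protein of the same endfeet. Aqp4 had 253 and 247 CPM in Q20 and 89.0 and 39.7 CPM in Q50. It had 4.28 and 7.30 CPM in Q92, and 2.80 and 2.92 CPM in Q111. The 4 lines were ordered by repeat length without overlap, and the mean of Q20 was 87.4 times that of Q111. The trend of Aqp4, -6.21 ± 0.37 (SE, adjusted p = 0.000287), was the largest among the 10 members. WT and KO replicates stood far apart, at 102 and 5.76 CPM and at 29.5 and 4.40 CPM, so WT overlapped Q50 and Q92 alike. The antisense gene AC133525.2 overlaps Aqp4, and the sources used here do not give the counter's use of strand.

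Mlc1 had 335 and 294 CPM in Q20, 318 and 361 in Q50, 123 and 130.1 in Q92, and 122 and 124 in Q111. WT had 329 and 170.3 CPM, and KO had 245 and 101. The values formed a high pair of lines and a low pair, and within each pair the lines overlapped. The trend was -1.63 ± 0.26 (SE, adjusted p = 0.00496). The step from Q50 to Q92 was -1.41 ± 0.40 (SE, adjusted p = 0.0424), and it was not called when any single library of these lines was left out, with adjusted p of 0.136 to 0.169.

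Gja1 (chr10:56377330-56402513, plus strand) encodes connexin 43, the main gap junction protein of astrocytes. In NPC it had 308 and 275 CPM in Q20 and 3.63 and 1.84 CPM in Q111. In the lines between, replicates disagreed, with 304 and 4.67 CPM in Q50 and 1.95 and 205 CPM in Q92. KO was also split, with 75.6 and 2.39 CPM, while WT had 158 and 96.7 CPM. A replicate ratio of at least 10, with the higher value at 5 CPM or more, was found for 0.394% to 0.916% of the genes tested in NPC, so such a split was rare within a genotype, and Gja1 met it in 3 of the 6. The trend of Gja1 was -5.48 ± 1.97 (SE) and was not called (adjusted p = 0.0802). Without Q50 replicate 2 it was -6.18 (adjusted p = 0.0382), and without Q92 replicate 2 it was -6.55 (adjusted p = 0.0268). No other single library changed this call.

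Gfap (chr11:102887336-102900912, minus strand) encodes the intermediate filament protein of astrocytes, and its NPC levels were low outside Q20 and Q50. They were 43.1 and 27.8 CPM in Q20, 72.9 and 35.3 in Q50, 0.182 and 0.0938 in Q92, and 2.82 and 2.44 in Q111. WT had 1.8 and 0.773 CPM, and KO had 4.30 and 0.9. Q20 and Q50 overlapped each other and lay above all other libraries, and Q92 lay below all others. The mean of Q50 was 393 times that of Q92, the widest range among the members. The trend was -4.84 ± 1.18 (SE, adjusted p = 0.0235), and it was not called without Q20 replicate 1, at -5.06 (adjusted p = 0.072). With edgeR on the recovered reads the trend of Gfap was -5.57 (adjusted p = 0.0902), and without the Q20 line it was -6.75 (adjusted p = 0.0772).

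S100b (chr10:76253853-76261159, plus strand) encodes a calcium-binding protein found in astrocytes and in cells of the oligodendrocyte lineage. It had 11.7 and 9.27 CPM in Q20, 21.9 and 15.7 in Q50, 0.561 and 2.02 in Q92, and 3.09 and 2.85 in Q111. WT had 11.4 and 4.37 CPM, and KO had the highest single value, 24.2 CPM, beside 12.1. Q92 was the lowest line, Q111 was next, and neither overlapped any other genotype. The step from Q50 to Q92 was called at -3.17 ± 0.49 (SE, adjusted p = 0.00322), and the trend of -2.46 ± 0.77 (SE) was not called (adjusted p = 0.0519). The protein-coding gene Dip2a overlaps the S100b gene on the opposite strand.

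Across the knock-in lines, the trend was called lower for 6 of the 10 members (Aqp4, Gfap, Slc1a2, Aldoc, Glul and Mlc1) and higher for none, against 10.1% of all genes tested called lower. The median trend of the 10 was -3.11, and all 10 were negative, beside a median of 0.04 over all genes tested. With 1 mean value per line, none of the 10 was called by limma, and over all genes tested the count was 0 as well, with 1831 genes at an unadjusted p under 0.05. With edgeR on the recovered reads, 5 of the 10 members were called. The repeat length differed only between 4 lines, so length and any other difference between these lines cannot be told apart.

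The number of members called differed between the steps, which span unequal numbers of repeats. Whether the change came unevenly over the lengths was not tested. From Q20 to Q50, 2 members were called lower, Aldh1l1 and Glul, against 10.7% of all genes. From Q50 to Q92, 7 were called lower, against 11.4% of all genes, the exceptions being Aqp4, Glul and Gja1. From Q92 to Q111, Aldoc was called lower, against 6.41% of all genes, and Aldh1l1 was called higher, against 7.8%. The line with the lowest mean was Q92 for 5 members and Q111 for the other 5. The 4 means fell at each of the 3 steps for Aqp4, Gja1, Aldoc and Glul, a count of 4 in 10 beside 6.35% of all genes tested. Both libraries of Q92 and of Q111 were below those of Q20 and Q50 for 8 members, beside 12.2% of all genes tested. Comparisons of consecutive lines share the libraries of the line between them.

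Between the ends of the series, 7 members were called lower in Q111 than in Q20, against 16.1% of all genes tested, and both Q111 libraries were below both Q20 libraries for all 10, beside 37.9% of all genes. The differences called ran from -1.35 ± 0.40 (SE, adjusted p = 0.0398) for Mlc1 to -6.02 ± 1.20 (SE, adjusted p = 0.0081) for Aqp4. Aldoc, at -3.53 ± 0.17 (SE, adjusted p = 5.4e-06), had the smallest p. The 3 not called were Slc1a3 at -0.55 ± 0.26 (SE, adjusted p = 0.151), Aldh1l1 at -0.74 ± 0.37 (SE, adjusted p = 0.158) and Gja1 at -6.33 ± 2.36 (SE, adjusted p = 0.0763). S100b, at -1.53 ± 0.49 (SE, adjusted p = 0.0478), lost its call whichever of the 4 libraries was left out, with adjusted p of 0.12 to 0.195, and with edgeR (adjusted p = 0.072). Mlc1 also lost its call whichever of the 4 libraries was left out, with adjusted p of 0.115 to 0.165. Slc1a2 was not called without Q20 replicate 1 or without either Q111 library, with adjusted p of 0.0506 to 0.0578.

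**Figure D2:**
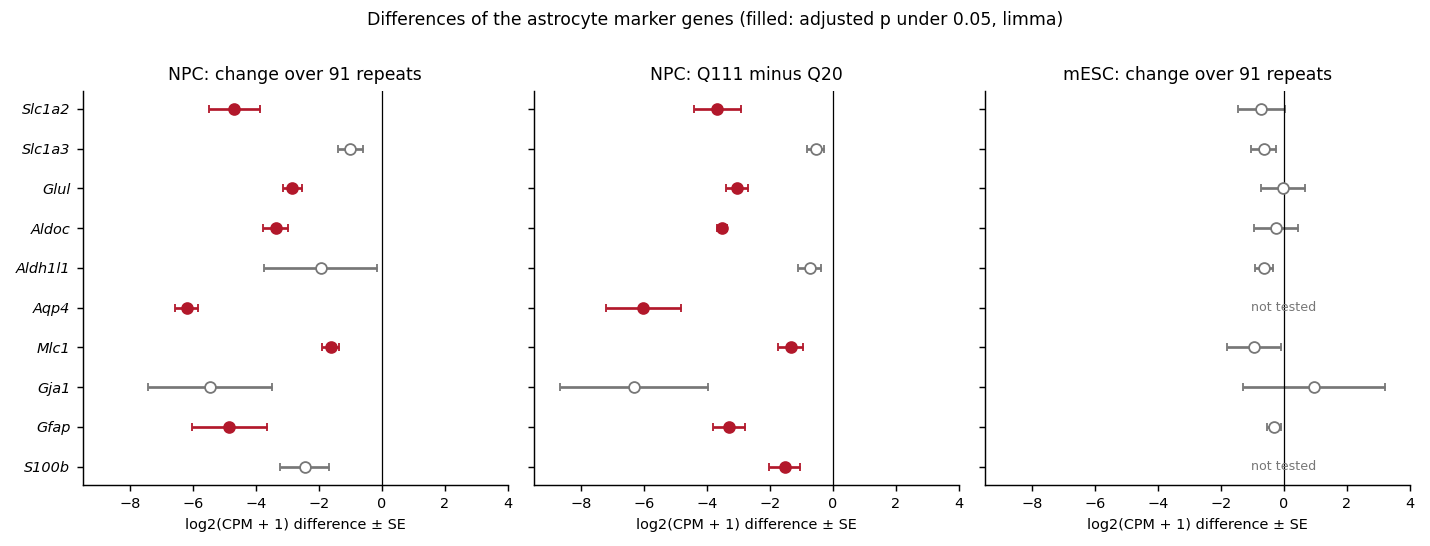
Difference of each marker gene on the log2(CPM + 1) scale, with bars for the standard error, as the change over 91 CAG repeats in NPC, as Q111 minus Q20 in NPC, and as the change over 91 repeats in mESC. Filled points passed an adjusted p of 0.05 in limma: 6 of 10, 7 of 10 and 0 of 8 members, and Aqp4 and S100b were not tested in mESC.

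The WT NPC did not sit at one end of the knock-in series. Q20, whose repeat is in the normal range, had more Gfap than WT, by 4.00 ± 0.52 (SE, adjusted p = 0.00116), and more Aldh1l1, by 2.18 ± 0.37 (SE, adjusted p = 0.00476). These were the 2 members called higher in Q20, against 9.97% of all genes tested, and none was called lower. Aqp4 was 3.25 ± 1.20 (SE) higher and was not called (adjusted p = 0.12), but without WT replicate 1 the difference was 5.22 (adjusted p = 0.0079).

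Against the same WT libraries, Q111 had 4 members called lower, Slc1a2, Slc1a3, Aldoc and Glul, against 7.9% of all genes tested, and Aldh1l1 called higher, against 8.74%. Aldoc showed the largest of these differences, -3.48 ± 0.17 (SE, adjusted p = 1.57e-05), and it was -3.64 to -3.33 with a single library left out. Fitted by limma with only the WT and Q111 libraries, Aldoc had an adjusted p of 0.0525. In that fit 0 members and 0 of all genes tested were called. Glul was -2.14 ± 0.35 (SE, adjusted p = 0.00642), and without Q111 replicate 1 it was -1.79 with an adjusted p of 0.0531. Slc1a2 (-2.79 ± 0.75, SE, adjusted p = 0.0392) and Slc1a3 (-1.21 ± 0.26, SE, adjusted p = 0.0196) were not called without WT replicate 1, at -1.74 (adjusted p = 0.179) and -0.92 (adjusted p = 0.0895), nor without either Q111 library. Aldh1l1, 1.44 ± 0.37 (SE, adjusted p = 0.033) higher, was 0.92 (adjusted p = 0.0638) without WT replicate 2 and was not called without either Q111 library. Gfap was 0.70 ± 0.52 (SE, adjusted p = 0.368) higher than in WT. Without WT replicate 2, 7 members were called, and without Q111 replicate 1 the count was 1. The calls over all 13206 genes moved likewise, from 2197 to 5085 and to 558.

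In the NPC labelled KO, Aldh1l1 was the only member called, with a difference from WT of -2.01 ± 0.37 (SE, adjusted p = 0.0437), against 0.545% of all genes called lower. Without WT replicate 1 it was -1.495 (adjusted p = 0.0979), and without KO replicate 2 it was -1.57 (adjusted p = 0.131). It was not called with edgeR either, at -2.17 (adjusted p = 0.0619). For the other members the difference ran from -2.95 ± 2.36 (SE, adjusted p = 0.687) for Gja1 to 1.15 ± 0.49 (SE, adjusted p = 0.359) for S100b. All 10 members were lower in replicate 2 than in replicate 1 in both WT and KO, beside 34.6% of all genes tested. The replicate ratio in WT reached 17.6 for Aqp4 and 4.31 for Slc1a2, and the smallest was 1.19, for Glul. In the knock-in lines, 8 members were lower in replicate 2 in Q20, 8 in Q50, 2 in Q92 and 5 in Q111, beside 40.7% to 51.3% of all genes tested. Across genes, the replicate differences of WT and KO correlated at 0.467. With the replicate number as a block Aldh1l1 was still called in KO (adjusted p = 0.0484), and no other member was.

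A wider list of 22 astrocyte genes held 21 that were measured in NPC. In the CAG trend, 13 of the 21 were called lower, against 10.1% of all genes tested, and 0 higher, with a median of -2.61. The most changed were Apoe, the lipid carrier secreted by astrocytes, at -5.57 ± 0.98 (SE, adjusted p = 0.00684), Agt, which encodes angiotensinogen, at -5.40 ± 1.01 (SE, adjusted p = 0.0088), and Ndrg2 at -5.17 ± 0.58 (SE, adjusted p = 0.0014). Apoe had 976 and 820.3 CPM in Q20, 1092 and 640.3 in Q50, 16.9 and 24.6 in Q92, and 46.7 and 43.8 in Q111. Like Slc1a2, it was lowest in Q92. The count was 7 without either Q20 library. WT replicates differed here as well, with 770.3 and 67.6 CPM of Apoe. In Q111 against Q20, 14 of the 21 were called lower, with a median of -2.30, against 16.1% of all genes. In that comparison 1 was called higher, Chrdl1 at 2.42 ± 0.23 (SE, adjusted p = 0.000208), against 12.2% of all genes.

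Of 17 regulators of glial fate, with a median trend of -0.40, 3 were called lower, against 10.1% of all genes, and 0 higher. These were Hes5, a target of Notch signalling, at -3.68 ± 0.92 (SE, adjusted p = 0.0257), the receptor gene Cntfr at -1.90 ± 0.56 (SE, adjusted p = 0.0444) and Bmpr1b, a receptor for bone morphogenetic proteins, at -1.55 ± 0.42 (SE, adjusted p = 0.0332). No gene of the list was called without either Q20 library or without Q111 replicate 1, while 6 were called with quantile normalization and 1 with the replicate block. Stat3, at 237 to 290.2 CPM in the knock-in libraries, had a trend of -0.17 ± 0.12 (SE, adjusted p = 0.318). Nfia, a nuclear factor I gene, had 109 and 94.9 CPM in Q20 and 185 and 141 CPM in Q111, a trend of 0.47 ± 0.21 (SE, adjusted p = 0.136).

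Genes of radial glia and neural stem cells showed no common direction. Of 11 measured, 2 were called higher in the trend, Olig2 and Nes, against 12.0% of all genes, and 1 lower, Msi1, against 10.1%, with a median of -0.32. Nes, which encodes the progenitor filament nestin, had 354 and 393 CPM in Q20, 606 and 914 in Q50, 1273 and 1225 in Q92, and 814 and 803 in Q111. Fabp7, a lipid-binding protein of radial glia, had a trend of -0.18 ± 0.55 (SE, adjusted p = 0.844). Of 8 oligodendrocyte genes measured, 1 was called higher, Cspg4, which encodes the progenitor antigen NG2, and of 11 neuron genes 1 was called lower, Dcx, with a median of -1.90 over the 11. The oligodendrocyte count was 2 without Q50 replicate 2, with a pseudocount of 0.5, with no filter, with 89 repeats for the third line or with log2 of the repeats, and the neuron count was 2 with edgeR or log2 of the repeats. In Q111 against Q20, 7 of the 11 neuron genes were called lower and 0 higher, with a median of -1.21. Of the 8 oligodendrocyte genes, 3 were called lower and 1 higher in that comparison. These counts stand against 16.1% of all genes called lower and 12.2% called higher. With a single library left out, 4 to 6 neuron genes and 2 to 3 oligodendrocyte genes were called.

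Markers of cells other than neural progenitors also differed between the NPC lines, and each list had its own order of lines. Of 10 fibroblast genes, 6 were called lower in the trend, against 10.1% of all genes. The summed level of the 10 was 390 and 321 CPM in Q20 and 947 and 960 CPM in Q50. It was 13.1 and 14.6 CPM in Q92, and 46.7 and 43.5 CPM in Q111. WT and KO had 26.5 to 43.7 CPM, about the fibroblast level of Q111, while the 10 astrocyte markers summed to 6042 and 3994 CPM in WT. The fibroblast count was 3 without Q20 replicate 1 or without either Q111 library. In Q92 and in Q111, 7 of the 10 were below 1 CPM in both libraries, Col1a1, Col1a2, Dcn, Lum and Pdgfrb among them, while Col3a1 reached 608 and 630 CPM in Q50. In Q111 against Q20, 9 of the 10 fibroblast genes were called lower and 0 higher, with a median of -2.26. Of the 10 astrocyte markers, 7 were called lower there, with a median of -3.17, against 16.1% of all genes. The pluripotency list, with 5 of 8 genes measured, summed to 108 and 106 CPM in Q20 and to 4.72 to 26.5 CPM in every other NPC library. Pou5f1, a defining gene of mESC, had 90.1 and 87.4 CPM in Q20 and under 1 CPM in the other 10 libraries, so it made up most of the Q20 sum. Of the 4 pluripotency genes tested, 2 were called lower in the trend, against 10.1% of all genes, and 1 higher, against 12.0%. Those called lower were Pou5f1 at -5.44 (adjusted p = 0.0405) and Nanog at -3.17 (adjusted p = 0.0176). The gene called higher was Klf4 at 1.99 (adjusted p = 0.0302). None was called without either Q20 library, and 1 was called without Q92 replicate 1, without either Q111 library or with the replicate block. The neuronal gene Stmn2 had 103 and 128 CPM in Q20. Gene by gene, 6 of the 11 neuron genes measured were called higher in Q20 than in WT, and 1 lower. Over all genes tested, 9.97% were called higher and 603 of 13206 lower. From Q20 to Q50, 6 neuron genes were called lower and 2 higher, against 10.7% of all genes lower and 1063 of 13206 higher. The summed CPM of the 11 neuron genes was nevertheless not highest in Q20. Their sum was 834 and 998 CPM in Q20, 982 and 1064 in Q50, 1051 and 914 in Q92, and 781 and 761 in Q111. In WT it was 1631 and 1261 CPM, and in KO 1417 and 1375 CPM. The part of these other cell types in the levels of the astrocyte markers was not tested.

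**Figure D3:**
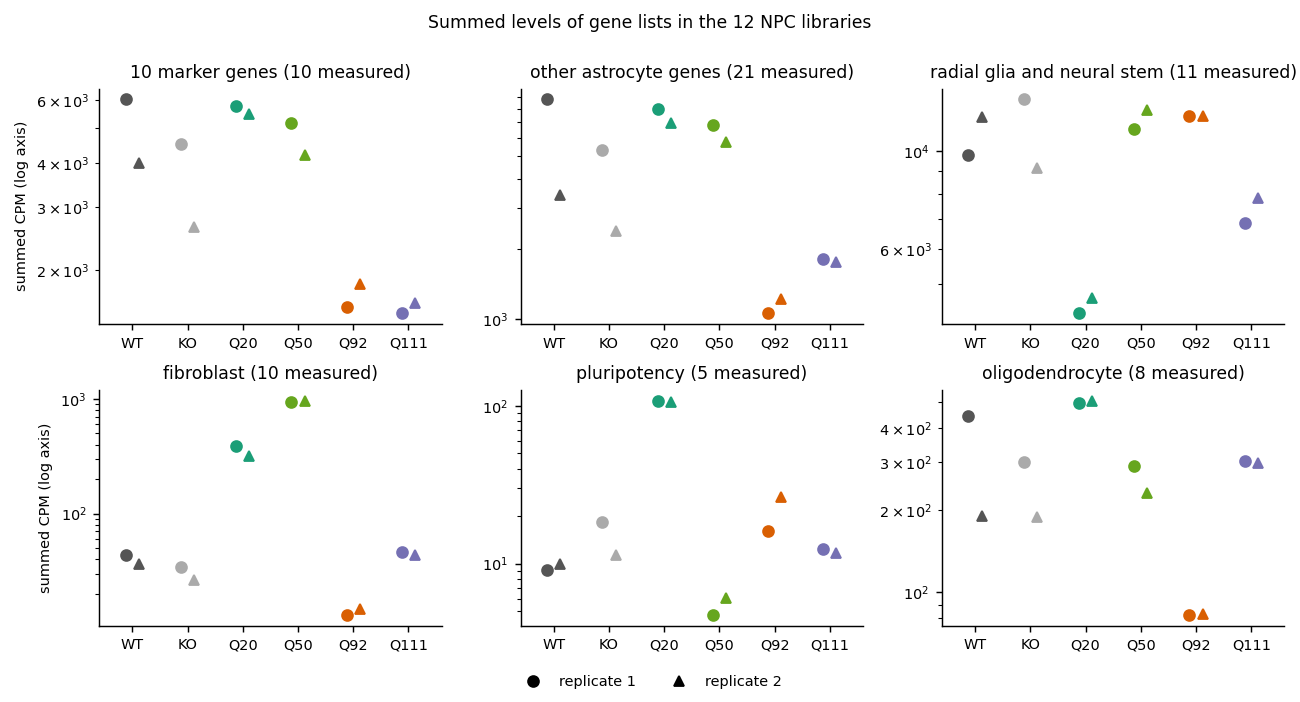
Summed level of 6 gene lists in the 12 NPC libraries (CPM, log axis), with 1 point per library. The astrocyte lists were low in Q92 and Q111, the fibroblast list was high in Q20 and Q50, the pluripotency list was high in Q20 alone, and the radial glia list was lowest in Q20, with 4280.1 and 4641 CPM.

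Among genes that are not members, the 3 whose log2 values ran most closely with Aqp4 over the 12 NPC libraries were Gpam (Pearson r = 0.987), Wipi1 (r = 0.983) and Atp1b2 (r = 0.977), the last a gene of the wider astrocyte list. Gpam had 209 and 191 CPM in Q20, 72.3 and 71.2 in Q92, and 64.2 and 67.0 in Q111, so its range was far narrower than that of Aqp4. With Gfap the closest were Plcg2 (r = 0.958), Ndrg4 (r = 0.948) and Col1a2 (r = 0.947). Col1a2, a collagen gene of the fibroblast list, had 33.1 and 25.4 CPM in Q20, 153 and 159 in Q50, and 0.0495 and 0.0782 in Q92. These coefficients describe 12 libraries that share genotypes in pairs.

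In mESC, Aqp4 and S100b did not pass the filter, with highest values of 1.27 and 1.20 CPM, both in Q20 replicate 2. Gfap lay between 0.336 and 1.57 CPM. Glul was the most abundant, from 117 to 676 CPM, and Slc1a3, from 16.01 to 57.1 CPM, Aldoc, from 9.20 to 68.0 CPM, and Aldh1l1, from 5.55 to 19.4 CPM, were also present throughout. None of the 8 members tested differed among the 6 genotypes, beside 0.201% of all genes tested. In mESC, replicates with the same number deviate together, and with the replicate number as a block the F test called 1206 of all genes in place of 28, and still 0 members.

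**Figure D4:**
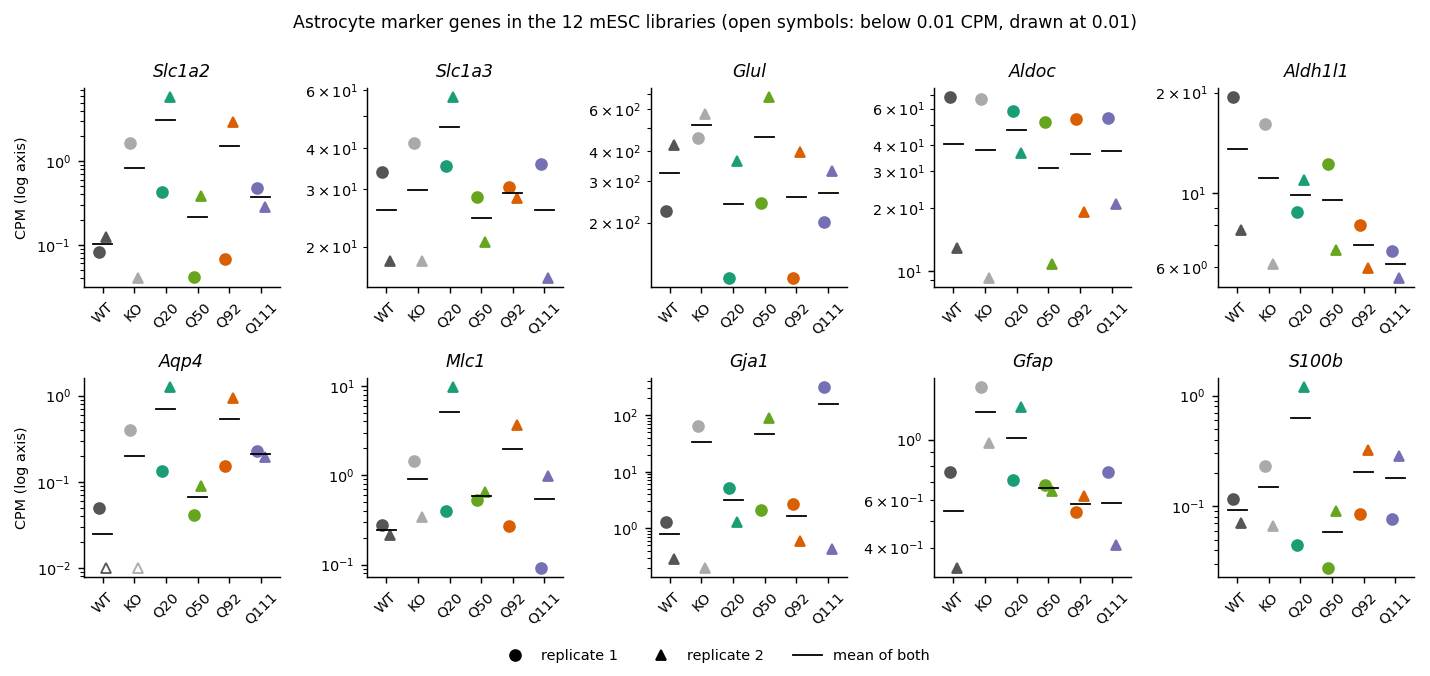
Level of each marker gene in the 12 mESC libraries (CPM, log axis), with 1 point per library and a bar at the mean of both. Open symbols are below 0.01 CPM and drawn there. Aldoc was higher in replicate 1 and Glul higher in replicate 2 in each of the 6 genotypes, and Slc1a2 and Mlc1 were highest in Q20 replicate 2 and Q92 replicate 2.

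Several members differed between the 2 replicates of the mESC genotypes. Aldoc was 51.5 to 68.0 CPM in the 6 libraries numbered 1 and 9.20 to 36.8 CPM in those numbered 2, and Glul was lower in replicate 1 of each genotype. Slc1a2 had 5.80 CPM in Q20 replicate 2 and 2.93 CPM in Q92 replicate 2, and at most 1.63 CPM elsewhere. Mlc1 had 9.78 and 3.61 CPM in the same libraries and at most 1.46 CPM elsewhere. The radial glia gene Fabp7 was also highest there, with 69.3 and 33.9 CPM, beside 18.5 CPM in KO replicate 1 and at most 7.84 CPM in the others. Its part in the values of Slc1a2 and Mlc1 was not tested.

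Gja1 varied between mESC replicates as it did in NPC. It had 65.5 and 0.199 CPM in KO, 2.12 and 89.1 in Q50, and 317 and 0.423 in Q111, and at most 5.06 CPM in the other 6 libraries. The genotypes split in mESC were KO, Q50 and Q111, and in NPC they were KO, Q50 and Q92.

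For the CAG trend in mESC, 0 of the 8 members tested were called by limma or by edgeR, beside 0.0% of all genes, of which 358 had an unadjusted p under 0.05. The trends of the 8 ran from -0.94 ± 0.86 (SE) for Mlc1 to 0.95 ± 2.27 (SE) for Gja1, with a median of -0.47. The difference of the trends, NPC minus mESC, was negative for all 8, with a median of -2.96 beside 0.05 over all genes tested in both. It was called for 1 member, Aldoc, at -3.11 ± 0.86 (SE, adjusted p = 0.0498), against 2.16% of all genes called lower. With the replicate number as a block, Aldoc had an adjusted p of 0.00919 and Glul was called too, at -2.81 (adjusted p = 0.00968). Gfap, at -4.53 ± 1.26 (SE, adjusted p = 0.0516), and Slc1a2, at -3.97 ± 1.19 (SE, adjusted p = 0.0698), were not called, so a difference between the cell types in their trends was not shown.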

How the data were processed

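RNA was sequenced as paired-end Illumina reads from 12 mESC and 12 NPC libraries, per the labels' protocols. Per the submitters' processing notes, CASAVA 1.8, STAR and build GRCm38.p6 were used. The counter, its use of strand and any filter are not given in the sources used here. The authors deposited 1 table per cell type, named CPM. The columns did not sum to a common total, so the deposited values were treated as a normalised CPM signal, and 100% of them were whole multiples of a step per column to within 0.05 reads. Reads recovered this way were tested with edgeR 4.0.16 as an alternative.

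Testing took genes that reached 1 CPM in 2 or more libraries of a cell type, 13206 in NPC and 13916 in mESC, as log2(CPM + 1) with limma 3.58.1 in R 4.3.3 (variance trend, two-sided). This scale understates changes of low genes. All 6 genotypes shared the estimate of spread. In NPC the median replicate difference over genes tested was 0.442 in WT and 0.326 in KO. It was 0.111 to 0.166 in the knock-in lines, so SE and p-values of comparisons with WT may be too small. The CAG trend used the 8 knock-in libraries and the difference of trends used 16. The scripts were tested on simulated data. Positions, exon lengths and overlaps came from GENCODE M21, and promoter windows from RefSeq. The members, lists and tests were chosen with earlier results of these data known. Named were all 10 members, Htt, at most 3 called genes per list and the 3 genes most like Aqp4 and Gfap. Any other gene was picked after seeing its values.

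The pairing of libraries by replicate number was checked by correlating, across genes, the replicate differences of each of the 15 pairs of genotypes. In mESC all 15 coefficients were above 0.1 (0.25 to 0.547), so the numbers pair the libraries. The main mESC fits and the main difference of trends had no block and so ignored this pairing. The block was run as an alternative only. In NPC 3 of 15 were above 0.1, WT with KO (0.467), WT with Q50 (0.17) and KO with Q50 (0.106). The lowest in NPC was -0.0495, and the block was an alternative there too.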

Additional observations from a re-analysis of the deposited data

Results flagged for a closer look

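Aldoc differed between the cell types in its CAG trend: NPC minus mESC was -3.11 on the log2(CPM + 1) scale (limma, interaction of cell type and repeat length, adjusted p = 0.0498). All 4 NPC libraries of Q92 and Q111, at 97.4 to 324 CPM, were below all 4 of Q20 and Q50, at 839 to 1244 CPM. In mESC the 8 knock-in libraries lay between 10.8 and 58.2 CPM and those of replicate 1 were above all those of replicate 2. Aldoc was no longer called under 18 of 25 alternatives and was called under 7, with adjusted p from 0.00919 to 0.292. Single libraries were not tested as outliers, since each group held 2.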

How the results depend on the processing

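Of 1512 values of single members under the alternatives, 1362 kept their direction and their side of the threshold, 82 lost a call, 33 gained one and 35 changed sign, none of them in a result called in the main analysis. Fitting only the libraries of both groups changed the count of members called to 0 for KO against WT, 1 for Q20 against WT, 4 for Q50 against Q20, 5 for Q111 against Q92, 10 for Q111 against Q20 and 0 for Q111 against WT. The same fits moved the calls over all genes from 188 to 0 (650 at an unadjusted p under 0.05), 1920 to 476, 2478 to 3927, 1877 to 4184, 3743 to 6712, and 2197 to 0 (2653 unadjusted). For Q92 against Q50, this limma fit also called Aqp4 lower, at -3.19 (adjusted p = 0.0167), and calls over all genes moved from 2571 to 4430. The KO count was also 0 with quantile normalization and with edgeR, and Q50 against Q20 had 1 with edgeR. For the CAG trend in NPC, 1 mean value per line gave 0, a fit with 4 values. The difference of trends had 2 members called with the replicate block and with quantile normalization, and 0 with a pseudocount of 0.5, 1 mean value per line, log2 of the repeats or without the Q20 line. With the replicate block the count was 3 in place of 2 for Q111 against Q92 and 9 in place of 8 for the F test in NPC. Apart from these and the difference of trends, the block changed no count of members. Leaving out 1 library at a time gave 0 to 1 members for KO against WT, 1 to 2 for Q50 against Q20, 4 to 5 for Q111 against Q20, 1 to 7 for Q111 against WT and 0 to 2 for the difference of trends.

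Signs changed only for results that were not called. In NPC, Mlc1 in Q50 against Q20 was -0.038 with quantile normalization, and the trend of Aldh1l1 was 1.94 without the Q20 line. In the mESC trend without the Q20 line, Slc1a2 was 0.52, Slc1a3 0.075, Aldoc 0.74, Mlc1 0.087 and Gja1 -0.57, and Glul was 0.13 with log2 of the repeats. For the difference of trends, Aldh1l1 was 2.71 without the Q20 line and Mlc1 was 0.53 with edgeR. With 1 library left out, KO against WT ran from -0.23 to 1.25 for Gfap, -3.00 to 0.93 for Aqp4, -0.42 to 0.34 for Glul and -1.22 to 0.050 for Mlc1. Q20 against WT ran from -0.16 to 1.94 for Slc1a2, -0.11 to 0.21 for Aldoc, -0.12 to 1.09 for S100b and -0.066 to 0.88 for Mlc1. Gja1 ran from -5.69 to 0.065 in Q50 against Q20, -3.82 to 2.31 in Q92 against Q50 and -5.83 to 0.30 in Q111 against Q92. In the mESC trend, the ranges were -1.20 to 0.32 for Slc1a2, -0.71 to 0.18 for Aldoc, -0.83 to 0.27 for Glul, -1.71 to 0.28 for Mlc1 and -1.79 to 2.54 for Gja1. The difference of trends of Mlc1 ran from -1.91 to 0.077. Unless the construction shows it, the cause was not tested. Groups of 2 libraries, and 1 line per repeat length, limit every comparison, and levels below 1 CPM rest on few reads.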
